A study of Mus musculus with 9 samples.

Results

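The genes described here are the insulin-like growth factors (IGFs), their receptors and their binding proteins, chosen by name: the ligands *Igf1* and *Igf2*, the receptors *Igf1r* and *Igf2r*, and the binding proteins *Igfbp2*, *Igfbp3*, *Igfbp4*, *Igfbp5*, *Igfbp6* and *Igfbp7*. All 10 were measured, each by 1 probe set, among the 19938 genes that the arrays measured with a probe set of a single gene symbol. They were measured on 9 microarrays of mouse 3T3 fibroblasts, an established embryonic fibroblast line. In 3 cultures Trap-80, a subunit of the Mediator complex that bridges transcription factors and RNA polymerase II, had been knocked down by a stably expressed short hairpin RNA (shRNA), and the cells had received TNF-α, an inflammatory cytokine that activates NF-κB, at 5 ng/ml for 1 h. In 3 cultures wild-type cells had received the same TNF-α, and 3 cultures of wild-type cells were unstimulated. In the study's results and figure legends the knock-down lines are clonal and the control cells carry an irrelevant shRNA. A property of a clone and an effect of the knock-down therefore cannot be told apart. Since no unstimulated knock-down culture is among those analysed here, a difference between the lines at rest cannot be told apart from one in the response.

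IGF1 and IGF2 are secreted growth factors that bind IGF1R, a receptor tyrosine kinase that signals through docking proteins to phosphoinositide 3-kinase (PI3K) and AKT and sustains growth and survival. IGF2R carries no kinase and removes IGF2 from the cell surface. Outside the cell the ligands are held by binding proteins, which lengthen their life and limit their access to the receptor until proteases cleave them, and fibroblasts are a classical source of both. Serum-derived IGF1 is also a classical progression factor for 3T3 cells in culture.

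The values are log2 signals normalized by RMA, which corrects background, equalises arrays and summarises the probes of each transcript. They can be compared between arrays for 1 gene but not between genes, since probes differ in brightness. The median probe set averaged 4.51. Differences were tested by limma, a linear model across all 23410 annotated probe sets, and a gene is said to have risen or fallen where its Benjamini-Hochberg adjusted p was under 0.05. *Med17*, the gene for Trap-80, had 6.35, 6.22 and 6.17 in knock-down cells with TNF-α, against 7.98, 7.93 and 7.77 in wild-type cells with TNF-α and 8.10, 8.09 and 7.89 in unstimulated wild-type cells. Its signal in the knock-down was 32% of wild type (log2 difference -1.64, SE 0.09, adjusted p = 4.77e-05, limma), and the exact two-sided permutation test gave p = 0.1, the smallest that 3 against 3 allows. Of the 10 fibroblast markers listed, 9 averaged above the median probe set, and *Lum* did not, at 2.19. Of those markers, *Thy1* and *S100a4* rose and *Pdgfra* fell in the knock-down, by log2 differences of 2.09, 0.55 and -1.89. No marker of the endothelial, skeletal myoblast or hepatocyte lists averaged above the median probe set, whereas 1 of 5 leukocyte, 2 of 5 epithelial and 1 of 3 adipocyte markers did, and none of the markers of these other cell types passed the test in the knock-down.

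*Igfbp7* was the member that changed, and the results below turn on it and on *Igf2*, which had the largest difference of the 10. The promoter windows of both are therefore shown, from 250 bases before to 50 after a RefSeq transcription start (build GRCm38.p6), 5′ to 3′ on the gene's strand, with each GC box (GGGCGG or its reverse complement, a site that Sp1 can bind) in capitals.
Igfbp7 (chr5:77407996-77408295, minus strand): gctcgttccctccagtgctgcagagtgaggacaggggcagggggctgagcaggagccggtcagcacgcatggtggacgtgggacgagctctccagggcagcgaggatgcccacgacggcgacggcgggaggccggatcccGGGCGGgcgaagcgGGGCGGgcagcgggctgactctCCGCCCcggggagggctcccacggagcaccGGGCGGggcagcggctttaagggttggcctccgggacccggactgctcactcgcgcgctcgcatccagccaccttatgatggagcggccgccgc
Igf2, the fourth of its 4 windows (chr7:142657447-142657746, minus strand): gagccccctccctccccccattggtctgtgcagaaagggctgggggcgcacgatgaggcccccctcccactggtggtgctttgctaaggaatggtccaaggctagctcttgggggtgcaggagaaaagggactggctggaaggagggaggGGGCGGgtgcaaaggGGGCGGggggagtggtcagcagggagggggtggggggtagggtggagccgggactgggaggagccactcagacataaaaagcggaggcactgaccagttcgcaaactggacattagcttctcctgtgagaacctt
The *Igfbp7* window held 4 GC boxes and 73.3% G and C, and the *Igf2* window shown 2 GC boxes and 63.3%, against a median of 52.7% over all windows. The window shown is the one of the 4 with the most GC boxes. The other *Igf2* windows held 0, 0 and 1, with 52.3, 49.7 and 64.7% G and C, and which start these cells use was not measured.

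All 10 genes matched a window, 14 in all, since *Igf2* has 4 and *Igfbp2* has 2. Both strands were searched for 4 motifs. The GC box lay in 6 windows, of *Igfbp7*, *Igf1r*, *Igf2r*, *Igfbp2* and *Igf2*, and 35.7% of all 32851 windows held it. The TATA box (TATAAA) lay in 2, those of *Igfbp4* and *Igfbp6*, with a share of 13.6% over all windows. The match lay at -28 from the transcription start in *Igfbp4* and at -148 in *Igfbp6*. The AP-1 site (TGANTCA, where N is any base) lay in 2, of *Igf1* and *Igfbp2*, with a share of 7.81%. The κB consensus, the element that NF-κB binds, lay in 1, that of *Igfbp5*, with a share of 4.51%. These are matches of letters in the window, and binding was not measured here.

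The first comparison asks how the genes differed between knock-down and wild-type cells that had both received TNF-α. Of the 10 genes, *Igfbp7* rose, none fell and 9 did not pass the test. Over all probe sets 5.96% were called, 3.36% higher and 2.6% lower, so that 1 call among 10 genes is near that background. With replicate numbers as a block, 9% of all probe sets were called, 4.94% higher and 4.07% lower, and *Igfbp7* was again the only one of the 10. Centring each array on its median turned the split over all probe sets of 786 higher and 609 lower into 1000 higher and 454 lower and shifted the median probe set by 0.0573. The 10 differences ran from -1.23 to 0.66 with a median of -0.19, against a median of -0.02 over all probe sets. The arrays of knock-down and wild-type cells did not overlap for 5 genes, 2 higher and 3 lower in the knock-down, against 20.9% of all probe sets, 10.9% higher and 10% lower.

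**Figure D1:**
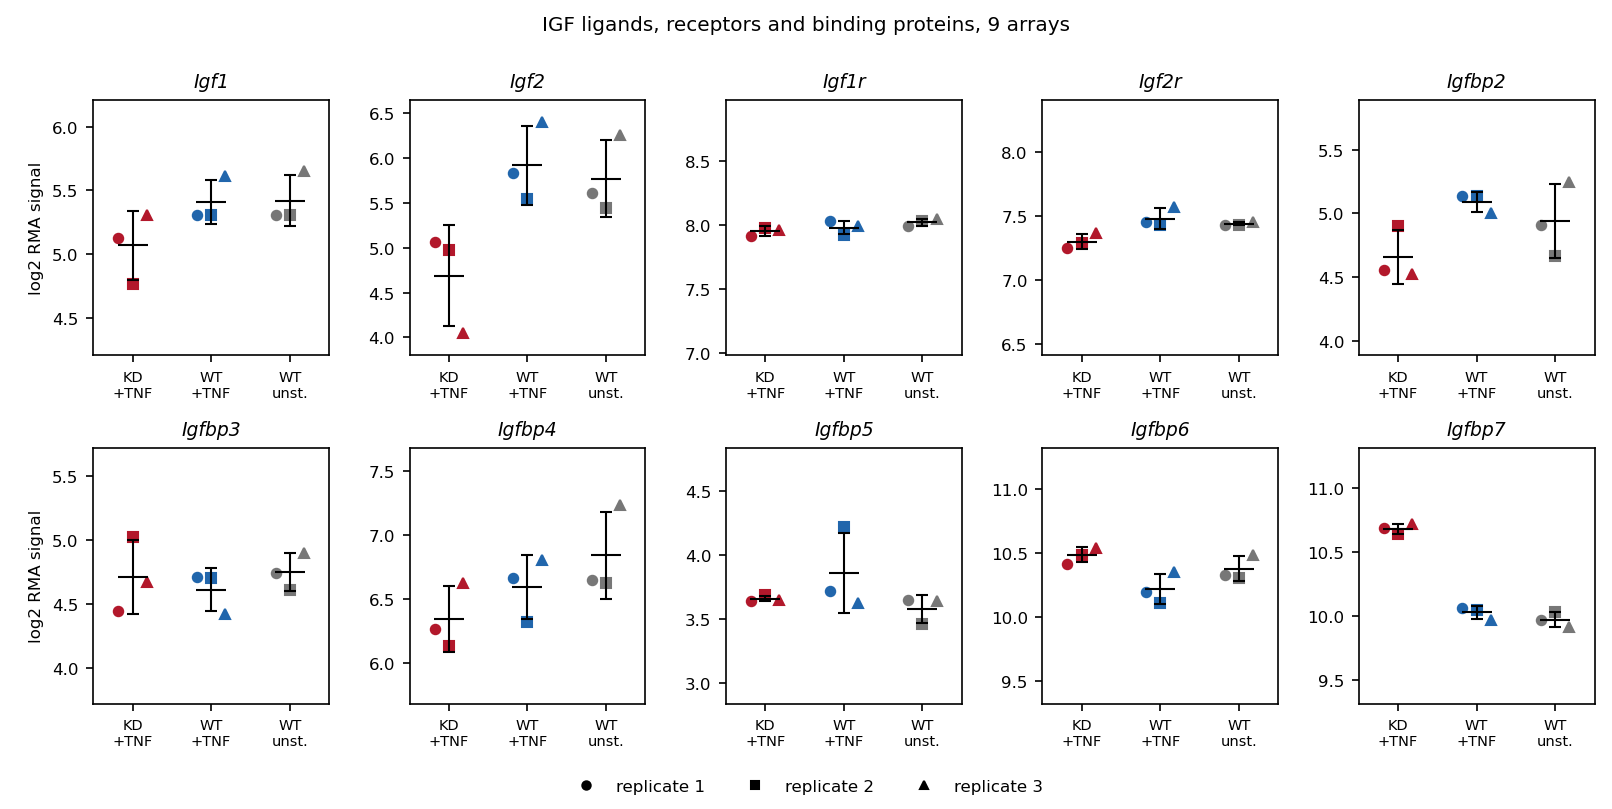
Log2 RMA signal of the 10 IGF family genes on 9 arrays, in knock-down cells with TNF-α (KD +TNF), wild-type cells with TNF-α (WT +TNF) and unstimulated wild-type cells (WT unst.). Symbols are the 3 cultures of a group, and bars the mean and SD. The 3 *Igfbp7* arrays of the knock-down sit between 10.64 and 10.72, above all 6 wild-type arrays, and the 3 *Igf2* arrays of the knock-down lie below all wild-type arrays.

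Among the ligands, *Igf2*, the growth factor of fetal life, stood at 5.06, 4.97 and 4.05 in knock-down cells with TNF-α, against 5.83, 5.54 and 6.40 in wild-type cells with TNF-α and 5.61, 5.44 and 6.26 in unstimulated wild-type cells. All 3 knock-down arrays were lower than all 6 wild-type arrays, and the third culture was the lowest of the knock-down group and the highest of both wild-type groups. Means were 4.69 ± 0.56 in the knock-down and 5.92 ± 0.44 in wild-type cells with TNF-α (SD, n = 3 each). The signal was 42.6% of wild type (log2 difference -1.23, SE 0.32, 95% interval -1.95 to -0.51), yet the adjusted p of 0.06 (limma) lay just above the threshold. Between cultures of the same number the differences were -0.78, -0.57 and -2.35. Without the 3 arrays numbered 3, an alternative added after seeing the data, the difference was -0.67 with an adjusted p of 0.0443 (limma). With each array left out in turn it lay between -1.42 and -0.91, and the adjusted p between 0.079 and 0.168. With probe sets below the median left out, the adjusted p of the full difference was 0.0356.

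*Igf1*, the ligand that growth hormone induces, had 5.13, 4.77 and 5.31 in the knock-down, against 5.31, 5.31 and 5.61 in wild-type cells with TNF-α and 5.31, 5.31 and 5.65 in unstimulated cells. The highest knock-down array met the lowest wild-type arrays at 5.31, a value that 5 of the 9 arrays shared. Such ties were common, since 9.7% of all probe sets held 1 value in at least 5 arrays. The means were 5.07 ± 0.27 and 5.41 ± 0.17 (SD, n = 3 each), and the log2 difference of -0.34 (SE 0.16, 95% interval -0.69 to 0.01) did not pass the test (adjusted p = 0.306, limma).

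The receptors varied little between cultures. *Igf1r*, which carries the signal of both ligands, had 7.91, 7.98 and 7.96 in the knock-down, against 8.03, 7.92 and 7.99 in wild-type cells with TNF-α and 7.99, 8.03 and 8.05 in unstimulated cells. Knock-down and wild-type cells with TNF-α overlapped, and the log2 difference of -0.03 (SE 0.06, adjusted p = 0.875, limma) had a narrow 95% interval of -0.17 to 0.11. *Igf2r*, the clearance receptor, had 7.25, 7.29 and 7.37 in the knock-down, against 7.45, 7.43 and 7.57 in wild-type cells with TNF-α and 7.43, 7.43 and 7.45 in unstimulated cells. Its knock-down arrays were all below the wild-type arrays, by a log2 difference of -0.18 (SE 0.07, 95% interval -0.33 to -0.02), but the adjusted p was 0.206 (limma).

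Among the binding proteins, *Igfbp7* encodes a secreted matrix protein that binds IGFs only weakly. It had 10.69, 10.64 and 10.72 in knock-down cells with TNF-α, against 10.06, 10.05 and 9.97 in wild-type cells with TNF-α and 9.97, 10.03 and 9.91 in unstimulated wild-type cells. The knock-down arrays were close to each other and above all 6 wild-type arrays. Means were 10.68 ± 0.04 and 10.03 ± 0.05 (SD, n = 3 each), a 1.58-fold higher signal in the knock-down (log2 difference 0.66, SE 0.07, 95% interval 0.51 to 0.81, adjusted p = 0.000787, limma). With each array left out in turn it stayed between 0.63 and 0.68, with adjusted p between 0.00395 and 0.00536. The genes whose values followed *Igfbp7* most closely over the 9 arrays, among 19937 others, were *Actn1*, which encodes an α-actinin that cross-links actin, *Sgms2*, a sphingomyelin synthase, and *Ildr2*, with Pearson's r of 0.994, 0.993 and 0.991. These arrays fall into the 3 groups, so that the likeness rests mainly on the gap between knock-down and wild type.

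*Igfbp6*, whose product prefers IGF2 over IGF1, was the other binding protein whose arrays were all higher in the knock-down. It had 10.42, 10.49 and 10.54 in the knock-down, against 10.20, 10.11 and 10.35 in wild-type cells with TNF-α and 10.33, 10.31 and 10.49 in unstimulated wild-type cells, so that the knock-down arrays overlapped with the unstimulated ones. The log2 difference from wild-type cells with TNF-α was 0.26 (SE 0.08, 95% interval 0.07 to 0.45), with an adjusted p of 0.125 (limma).

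*Igfbp2*, which binds both ligands and also integrins, had 4.56, 4.90 and 4.53 in the knock-down, against 5.14, 5.14 and 5.00 in wild-type cells with TNF-α and 4.91, 4.67 and 5.25 in unstimulated cells. The knock-down lay below wild-type cells with TNF-α without overlap and overlapped with the unstimulated cells. Its log2 difference was -0.43 (SE 0.15, 95% interval -0.77 to -0.09, adjusted p = 0.165, limma). *Igfbp4*, an inhibitor of IGF action that the protease PAPP-A cleaves, had 6.26, 6.13 and 6.62 in the knock-down, against 6.66, 6.32 and 6.80 in wild-type cells with TNF-α and 6.65, 6.62 and 7.23 in unstimulated cells. The groups overlapped, and the third culture was the highest in each. The log2 difference was -0.25 (SE 0.20, 95% interval -0.70 to 0.19, adjusted p = 0.59, limma). *Igf1*, *Igf2r* and *Igfbp6* shared this order of the third culture with *Igfbp4*, 4 of the 10 genes, as did 10% of all probe sets.

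The other binding proteins were *Igfbp3* and *Igfbp5*. *Igfbp3*, whose product is the main carrier of IGFs in serum, had 4.44, 5.02 and 4.67 in the knock-down, against 4.71, 4.70 and 4.42 in wild-type cells with TNF-α and 4.74, 4.61 and 4.90 in unstimulated cells. *Igfbp5*, which binds the extracellular matrix, had 3.64, 3.69 and 3.65, against 3.72, 4.22 and 3.63 with TNF-α and 3.65, 3.46 and 3.64 without it in wild-type cells. Both overlapped between groups, and the group means of *Igfbp5* all lay below the median probe set. Their log2 differences were 0.10 (adjusted p = 0.81, limma) for *Igfbp3*, which turned to -0.06 with 1 array left out, and -0.19 (adjusted p = 0.552, limma) for *Igfbp5*.

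**Figure D2:**
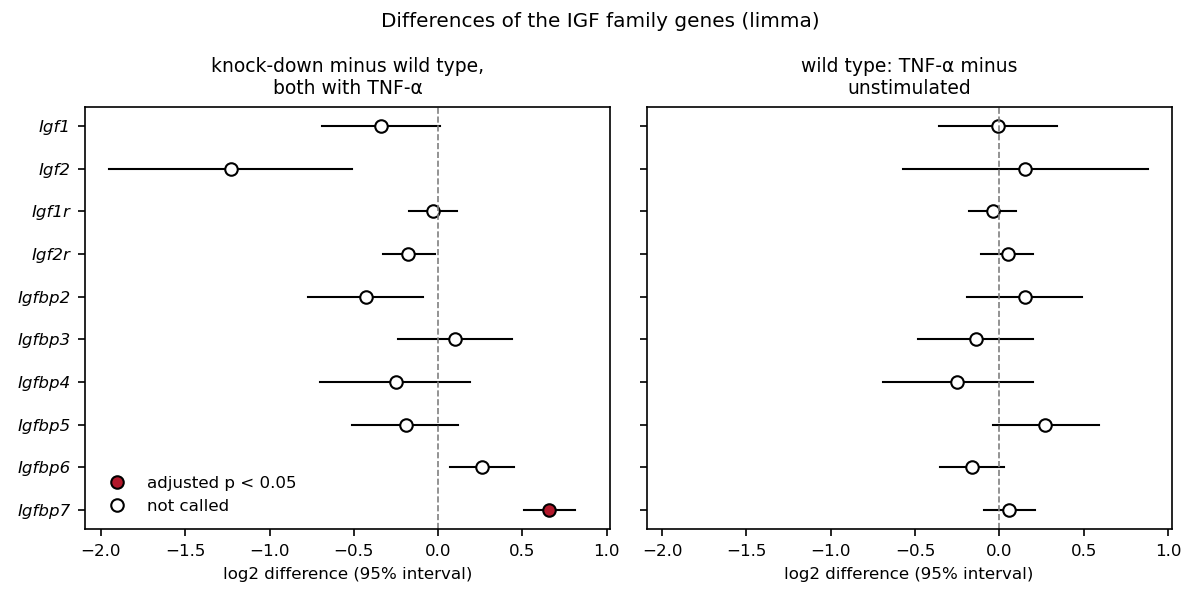
Log2 differences of the 10 IGF family genes with 95% intervals (limma), for knock-down minus wild type (left, all with TNF-α) and for TNF-α minus unstimulated in wild-type cells (right). The filled point marks an adjusted p under 0.05, which only *Igfbp7* reached, at 0.66 on the left, and the widest intervals belong to *Igf2*.

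The second comparison asks how the genes responded to TNF-α in wild-type cells. None of the 10 passed the test (limma), with replicate numbers as a block or without, and none had an unadjusted p under 0.05. Of all 23410 probe sets, 1663 had one. Over all probe sets 0.115% were called, and 0.235% with the block, so that no call among 10 genes is near the background. The differences ran from -0.25 for *Igfbp4* to 0.27 for *Igfbp5*, with a median of 0.02, and the arrays with and without TNF-α overlapped for all 10 genes, whereas 10.2% of all probe sets did not overlap. The 95% intervals were -0.09 to 0.21 for *Igfbp7* and -0.18 to 0.10 for *Igf1r*, whereas that of *Igf2*, -0.57 to 0.88, leaves room for a response over 1 h in either direction.

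Set against unstimulated wild-type cells, knock-down cells with TNF-α differed by both the knock-down and the stimulus, and this comparison shares the knock-down arrays with the first and the unstimulated arrays with the second. *Igfbp7* was 1.64-fold higher (log2 difference 0.71, SE 0.07, adjusted p = 0.000423, limma) and was the only call among the 10 in the model without a block, beside 8.25% of all probe sets, 3.64% higher and 4.62% lower. *Igf2* differed by -1.08 (SE 0.32, 95% interval -1.80 to -0.35), with an adjusted p of 0.0791. *Igfbp4* differed by -0.50 (SE 0.20, adjusted p = 0.183) and *Igf1* by -0.35 (SE 0.16, adjusted p = 0.24). The arrays did not overlap for 4 genes, *Igfbp7* higher and *Igf2*, *Igf1r* and *Igf2r* lower, against 23.4% of all probe sets, 10.8% higher and 12.6% lower.

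The other genes of the pathway were 89 listed by name, of which 79 were measured. In the knock-down 4 of the 79 rose and 8 fell, 15.2% of them, against 5.96% of all probe sets (3.36% higher and 2.6% lower), and their median difference was 0.03. With replicate numbers as a block 9 rose and 9 fell, against 9% of all probe sets (4.94% higher and 4.07% lower). The counts of the single lists are to be read against the same shares. Those shares include probe sets below the median, whereas most of the 79 lay above it. With only probe sets above the median tested, 1654 of 13096 were called in the knock-down, and the lists are to be read against that count too. The lists were chosen with earlier results of these data known, so that their shares are a description. None passed the test for TNF-α in wild-type cells (limma), where 10 had an unadjusted p under 0.05, beside 1663 of all 23410 probe sets. Of the 12 calls in the knock-down, those of *Pappa*, *Grb14*, *Akt1* and *Igf2bp3* held under all 14 alternatives, arrays left out in turn included, and 8 were lost under at least 1.

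Of 13 genes for the proteases that release IGFs and their inhibitors, 1 rose and 4 fell, 38.5% of them against 5.96% of all probe sets. *Pappa*, which encodes the PAPP-A protease that cleaves the product of *Igfbp4*, had 4.19, 4.20 and 4.59 in the knock-down, against 5.65, 5.65 and 5.97 in wild-type cells with TNF-α and 5.48, 5.64 and 5.51 in unstimulated cells. The knock-down arrays lay far below both wild-type groups, without overlap. The log2 difference was -1.43 (SE 0.13, adjusted p = 0.000479, limma). The knock-down mean of 4.33 lies below the median probe set. *Stc2*, the gene for an inhibitor of PAPP-A, had 5.36, 5.38 and 5.52 in the knock-down, against 5.72 in all 3 cultures of wild-type cells with TNF-α and 6.04, 6.15 and 5.96 in unstimulated cells. It differed by -0.30 with an adjusted p of 0.04999 (limma), and of 0.0624 with the block. Its difference from unstimulated cells, -0.63, had an adjusted p of 0.001355. *Adam12* and *Mmp9*, which encode metalloproteases that can cleave binding proteins, differed by -0.38 (adjusted p = 0.0467) and -0.72 (adjusted p = 0.0261). *Mmp9* averaged 4.20 in the knock-down, 4.91 in wild-type cells with TNF-α and 4.39 in unstimulated cells, the first and last below the median probe set. Its knock-down and unstimulated arrays overlapped (log2 difference -0.20, adjusted p = 0.5375, limma). *Plau*, the gene for the plasminogen activator urokinase, rose by 1.33 (adjusted p = 0.0238, limma). Calls were lost with 1 array left out in 6 of 6 cases for *Stc2* and *Adam12*, in 5 for *Plau* and in 4 for *Mmp9*.

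**Figure D3:**
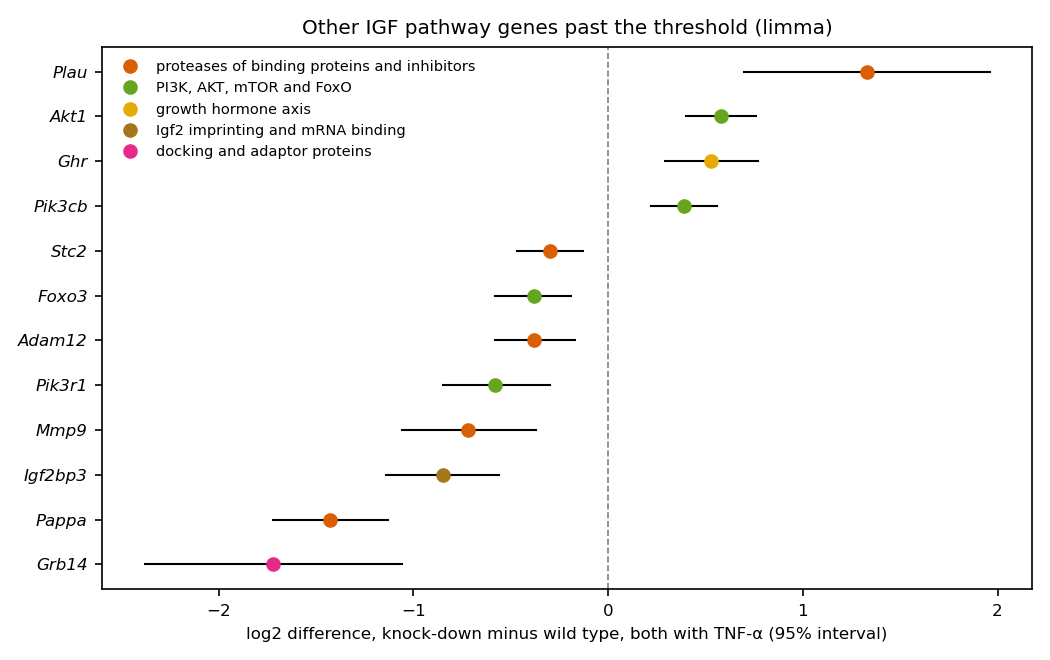
Log2 differences between knock-down and wild-type cells, all with TNF-α, of the 12 other IGF pathway genes past the threshold, with 95% intervals (limma) and coloured by list. The differences run from -1.72 for *Grb14* to 1.33 for *Plau*, 4 above and 8 below 0.

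Inside the cell, 1 of 15 genes for docking and adaptor proteins fell and none rose, 6.67% of them and near the 5.96% of all probe sets. That gene, *Grb14*, encodes an adaptor that binds the activated insulin receptor and restrains it. It had 6.08, 5.80 and 6.47 in the knock-down, against 7.67, 7.38 and 8.46 in wild-type cells with TNF-α and 7.77, 7.65 and 8.37 in unstimulated cells, with no overlap (log2 difference -1.72, SE 0.29, adjusted p = 0.0092, limma). The third culture was again the highest of each group.

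Of 23 genes of the PI3K, AKT, mTOR and FoxO list, 2 rose and 2 fell, 17.4% of them against 5.96% of all probe sets. All 23 averaged above the median probe set, and with only such probe sets tested 1654 of 13096 were called, a larger share than 5.96%. *Akt1*, the gene for the kinase that carries the survival signal, had 9.95, 10.15 and 10.08 in the knock-down, against 9.46, 9.59 and 9.39 in wild-type cells with TNF-α and 9.65, 9.69 and 9.67 in unstimulated cells, a log2 difference of 0.58 (adjusted p = 0.00309, limma). The knock-down arrays lay above both wild-type groups. *Pik3cb*, a catalytic subunit of PI3K, rose by 0.39 (adjusted p = 0.0148), whereas *Pik3r1*, its regulatory subunit, and *Foxo3*, a transcription factor that AKT keeps out of the nucleus, differed by -0.58 (adjusted p = 0.0259) and -0.38 (adjusted p = 0.0303). With 1 array left out the calls of *Pik3r1* and *Foxo3* were lost in 4 of 6 cases each, and that of *Pik3cb* in 1.

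**Figure D4:**
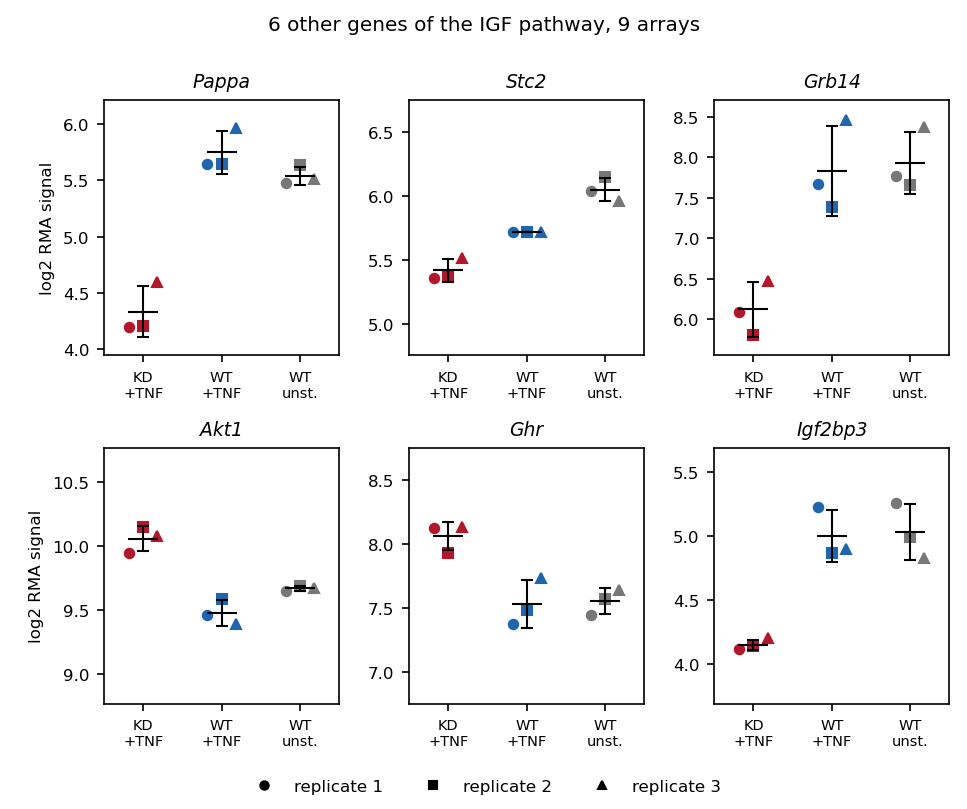
Log2 RMA signal of *Pappa*, *Stc2*, *Grb14*, *Akt1*, *Ghr* and *Igf2bp3* on 9 arrays, in knock-down cells with TNF-α, wild-type cells with TNF-α and unstimulated wild-type cells, with mean and SD of 3 cultures. The knock-down arrays do not overlap with either wild-type group for any of the 6, and the 3 stimulated wild-type arrays of *Stc2* share the value 5.72.

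Of 7 genes of the growth hormone axis 1 rose, beside 3.36% of all probe sets: *Ghr*, the growth hormone receptor. It had 8.12, 7.93 and 8.13 in the knock-down, against 7.37, 7.48 and 7.73 in wild-type cells with TNF-α and 7.44, 7.57 and 7.64 in unstimulated cells (log2 difference 0.53, adjusted p = 0.0215, limma), and 4 of 6 cases with 1 array left out lost the call. Of 9 genes listed as tied to *Igf2* imprinting or to its mRNA, 5 were analysed, and *H19* was not among them. Of these 5, *Igf2bp3*, which encodes a protein that binds *Igf2* mRNA, fell, beside 2.6% of all probe sets. It had 4.12, 4.14 and 4.20 in the knock-down, against 5.23, 4.87 and 4.90 in wild-type cells with TNF-α and 5.26, 4.99 and 4.83 in unstimulated cells. This log2 difference of -0.85 (SE 0.13, adjusted p = 0.00488, limma) again ended in a knock-down mean below the median probe set.

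None of the 4 measured genes of the insulin family and its receptors passed the test in the knock-down (limma), with 1 at an unadjusted p under 0.05, and neither did any of the 12 genes related to the binding proteins, with 5. Over all 23410 probe sets, 4080 had an unadjusted p under 0.05. With replicate numbers as a block, under which 9% of all probe sets were called, 4 of those 12 rose and 1 fell. *Ccn3*, a matricellular protein gene, had a log2 difference of 1.32 (adjusted p = 0.0756 without and 0.000945 with the block, limma). Its relative *Ccn5* had 6.94, 6.62 and 7.15 in the knock-down, against 8.22, 8.02 and 9.22 in wild-type cells with TNF-α and 8.26, 8.12 and 9.58 in unstimulated cells, without overlap. That is a difference of -1.59, with an adjusted p of 0.0573 without and 0.00214 with the block. *Ccn2*, *Ccn4* and *Htra1* differed by 0.70, 0.28 and 0.30, and passed only with the block. So did *Mmp2*, at -0.54, and *Pik3r3*, at 0.38, outside this list.

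Against unstimulated wild-type cells, 8 of the 79 rose and 7 fell in knock-down cells with TNF-α, 19% of them, against 8.25% of all probe sets (3.64% higher and 4.62% lower). Most of the 79 lay above the median probe set, and with only such probe sets tested 2227 of 13096 were called, a larger share than 8.25%. *Pappa*, *Stc2*, *Plau*, *Grb14* and *Igf2bp3* kept these calls under all alternatives. Genes called here but not in the first comparison were *Ccn3* (1.50), *Ccn4* (0.57), *Ccn5* (-1.75), *Igfbpl1* (0.55), *Tsc1* (-0.40), which encodes a brake on mTOR, and *Cish* (0.57), an inhibitor of growth hormone signalling. Of 14 alternatives, 10 lost the call of *Tsc1*, 7 those of *Ccn5* and of *Cish*, 6 that of *Ccn3* and 3 that of *Ccn4*. The call of *Igfbpl1* was lost in 8 of 13, and its group means all lay below the median probe set. Whether these 6 differed between the comparisons was not tested.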

How the data were processed

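Total RNA of 9 cultures, 3 per group, was hybridised to Affymetrix Mouse Gene ST arrays. The authors deposited log2 values of 35557 probe sets after RMA. Its version is not given. Of these, 21789 list 1 gene symbol, 1621 several and 12147 are unnamed here. The 23410 named probe sets were tested without rescaling or a filter on low signal, and array medians lay between 4.47 and 4.59. The 3 groups entered 1 limma model (limma 3.58.1, R 4.3.3, lmFit and eBayes, 6 residual and 3.2 prior degrees of freedom, median SE 0.10), with Benjamini-Hochberg adjustment over all probe sets and a threshold of 0.05. The model was first run on simulated arrays with independent noise, which lack the ties and the likeness between arrays seen here, so that run does not cover them. The number of arrays limits the precision.

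The members and gene lists were chosen with earlier results of these data known. Genes named are all members, *Med17*, listed pathway genes past the threshold in any comparison, and the 3 genes most correlated with each called member. Of the 89 pathway genes listed, 10 were not analysed here. *Igfbp1* was kept in the list of related genes.

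The labels number the biological replicates without saying what a number shares. Deviations of same-numbered arrays from their group means correlated at 0.147, 0.274 and 0.465 between knock-down and wild type with TNF-α. Between stimulated and unstimulated wild type they correlated at 0.298, 0.110 and 0.403. Arrays 1 and 2 of unlike number correlated at 0.16 and 0.052 in the first of these comparisons and at 0.249 and 0.099 in the second. Pairing by number is thus not shown for arrays 1 and 2, and the block is given only as an alternative fit. Alternatives also covered scaling, a filter on dim probe sets, all probe sets, the 6 arrays of a comparison, limma with trend and robust settings and each array left out. Promoter windows came from RefSeq (GRCm38.p6).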

Additional observations from a re-analysis of the deposited data

How the results depend on the processing

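With replicate numbers as a block, 2108 probe sets were called for the knock-down and 55 for TNF-α, against 1395 and 27 without it. Between knock-down and unstimulated cells the same-numbered arrays correlated at 0.151, 0.002 and 0.221. Arrays 1 and 2 of unlike number correlated at 0.161 and 0.028, so that pairing by number is not shown there either. There the block called *Igf1* (-0.35, adjusted p = 0.0391) and *Igfbp4* (-0.50, adjusted p = 0.0113) lower, beside 6.87% of all probe sets, and 8 of the 79 pathway genes higher and 10 lower, and it changed no other call of the 10 genes. For TNF-α, 9 probe sets were called from the 6 arrays alone and 13 with all probe sets tested. Leaving out 1 array gave 738 to 1106 calls for the knock-down, 9 to 19 for TNF-α and 1147 to 1944 against unstimulated cells. For the knock-down no single array but the third stimulated wild-type one, and for TNF-α none but the second stimulated one, kept the count within 1.5 times. Against unstimulated cells the count moved further without knock-down array 1 or 3 or unstimulated array 1.

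*Igf2* passed the test without probe sets below the median, at -1.23 with an adjusted p of 0.0356 in the knock-down and -1.08 with 0.0477 against unstimulated cells. It also passed in the knock-down without the arrays numbered 3 (-0.67), an alternative added after seeing the data, whereas single arrays left out gave -1.42 to -0.91 and no call. Without the arrays numbered 3, 37 probe sets were called for TNF-α. Signs turned only in uncalled differences. Centring gave *Igf1r* 0.03 in the knock-down and *Igf2r* -0.01 for TNF-α, and quantile normalization gave *Igf1r* 0.01 for TNF-α. Without the arrays numbered 3, *Igfbp3* differed by 0.03 for TNF-α, against -0.21 to -0.05 with single arrays left out, and by 0.05 against unstimulated cells. With single arrays left out the range was -0.06 to 0.23 for *Igfbp3* in the knock-down, -0.11 to 0.10 for *Igf1* and -0.09 to 0.40 for *Igf2* under TNF-α, and -0.20 to 0.09 for *Igfbp3* against unstimulated cells. The causes were not tested. *Igfbp7* kept its direction and call under every alternative run. Other probe sets of a gene could not be tried, since each of the 10 has 1, and *Igfbp5* has no value with dim probe sets left out.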
